A study of Mus musculus with 4 samples.

Results

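The imprinted growth regulators described here are 10 mouse genes that lie outside the Dlk1-Dio3 cluster: Igf2r, Cdkn1c, H19, Phlda2 and Grb10, which are maternally expressed, and Plagl1, Peg3, Mest, Igf2 and Nnat, which are paternally expressed. They were taken by gene name from the array files, which hold 18 non-control probes for them out of 41174. Of these, 17 passed the detection filter among 21801 tested probes, which stand for 14845 genes. The gene list itself used no measured value, but it was drawn up with results of these arrays known, and the sign of each array was chosen by the ratio of its Cdx4 probe. That ratio belongs to the same contrast as every value below, so agreement of signs between arrays is a description and no separate support.

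An imprinted gene is transcribed mainly from the chromosome inherited from 1 parent, and the choice of copy follows from DNA methylation that a control region receives in the germ line of 1 parent. In the mouse embryo many maternally expressed genes restrain growth and many paternally expressed ones promote it. Igf2 encodes the growth factor IGF2, H19 is a noncoding RNA of the same cluster, and Igf2r encodes the receptor that takes IGF2 up for degradation. Cdkn1c encodes the cell cycle inhibitor p57Kip2, Phlda2 a growth-restraining protein best known from the placenta, and Grb10 an adaptor that dampens signalling from the insulin and IGF1 receptors. Plagl1 and Peg3 encode zinc finger proteins, Mest a protein of the hydrolase fold, and Nnat a small membrane protein, neuronatin, known from neural and endocrine cells.

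The study set Cdx2+/-Cdx4-/- mutant embryos against wildtype embryos at the stage of 5 to 6 somites. Cdx2 and Cdx4 are caudal-type homeobox genes needed for growth of the posterior body, and by its label the mutant carries 1 working copy of Cdx2 and none of Cdx4. The tissue was the part of the embryo behind the last somite boundary, pooled from 10 embryos of each genotype, and both RNAs were hybridised to each of 4 Agilent arrays of 2 colours. The labels name array 1 as replicate 1, array 2 as its dye swap, array 3 as replicate 2 and array 4 as its dye swap.

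The direction of the ratios is not settled by the labels. Cdx4, whose probe lies at chrX:99532694-99532753 in the mouse build mm8, had log2 ratios of Cy5 over Cy3 of -2.59, -2.11, 2.82 and 2.42 on arrays 1 to 4, a pattern that a dye swap within each replicate would not give. The ratios of Cy5 over Cy3 correlated across 20070 probes at r = 0.82 between arrays 1 and 2 and at r = 0.88 between arrays 3 and 4, while every pair across these lay between -0.43 and -0.38. Each array is therefore read as Cdx4-low RNA over Cdx4-high RNA. The Cdx4-low RNA is the mutant by the labels of arrays 1 and 4 and the wildtype by the labels of arrays 2 and 3. It is in Cy5 on arrays 1 and 2 and in Cy3 on arrays 3 and 4. The sources used here do not give the deleted part of Cdx4, and if the probe lies outside it the probe checks nothing about the labels. With the opposite sign, higher and lower change places in every count, rank and median below.

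Values are normalised intensities and log2 ratios. Arrays of the same labelled replicate number were averaged and the 2 averages tested against 0 with limma, with Benjamini-Hochberg adjustment over all tested probes and a threshold of 0.05. In this pairing dye and replicate number coincide and cannot be told apart. A second pairing, the exchange pairing, joined array 1 with 3 and array 2 with 4, so that each pair holds both dyes. A gene is called higher or lower only where it passed in both pairings, and the standard errors (SE, n = 2 averages) and adjusted p-values come from the first unless the exchange pairing is named. The 2 pairings share each gene's mean ratio, and the second removed no call. The first alone gave the same 436 higher and 580 lower genes, so passing in both is no added support. Limma shared the spread over genes, with 17.2 prior degrees of freedom in the first pairing and infinitely many in the exchange pairing. Every tested probe therefore had the same SE of 0.052 in the exchange pairing, and its p-values there follow the size of the mean ratio alone. That pairing also averages over any gap between arrays 1 and 2 and arrays 3 and 4. The labels do not say whether replicates 1 and 2 were separate pools of embryos. The p-values therefore cover the spread between hybridisations alone, and that spread may be technical. All probe positions are those of the array files on mm8, and exon annotation of that build was not used here.

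Among the 10 members, Igf2r, Cdkn1c, H19 and Plagl1 were lower in the Cdx4-low RNA and Nnat was higher, while Phlda2, Grb10, Peg3, Mest and Igf2 were not called. The changes were moderate, from 1.32-fold for H19 to 1.50-fold for Plagl1. Over all 14845 tested genes, 580 were lower (3.91%) and 436 higher (2.94%). With the sign turned, the 4 lower and 1 higher members become 1 lower and 4 higher. In the exchange pairing alone 7 members were lower and 1 higher, where 18.8% of all tested genes were lower and 21.6% higher. All 5 calls depend on the loess normalisation, as do those of all other genes. With each array centred on its median in place of loess, limma called 0 of all 14845 tested genes, members included (274 had an unadjusted p under 0.05). The means of H19 and Cdkn1c turned to 0.20 and 0.11, still below the all-gene median of 0.28 in that setting. Without the filter on dim probes the 5 kept their ratios but none passed, with adjusted p-values from 0.0861 for Plagl1 to 0.183 for H19. In that setting 10 of all 27578 genes were higher and 4 lower. Array 1 also bears on the 5 calls, since without it Plagl1 alone passed in the first pairing (log2 ratio -0.56, adjusted p = 0.0412). Of all tested genes, 86 were higher and 74 lower without array 1.

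**Figure D1:**
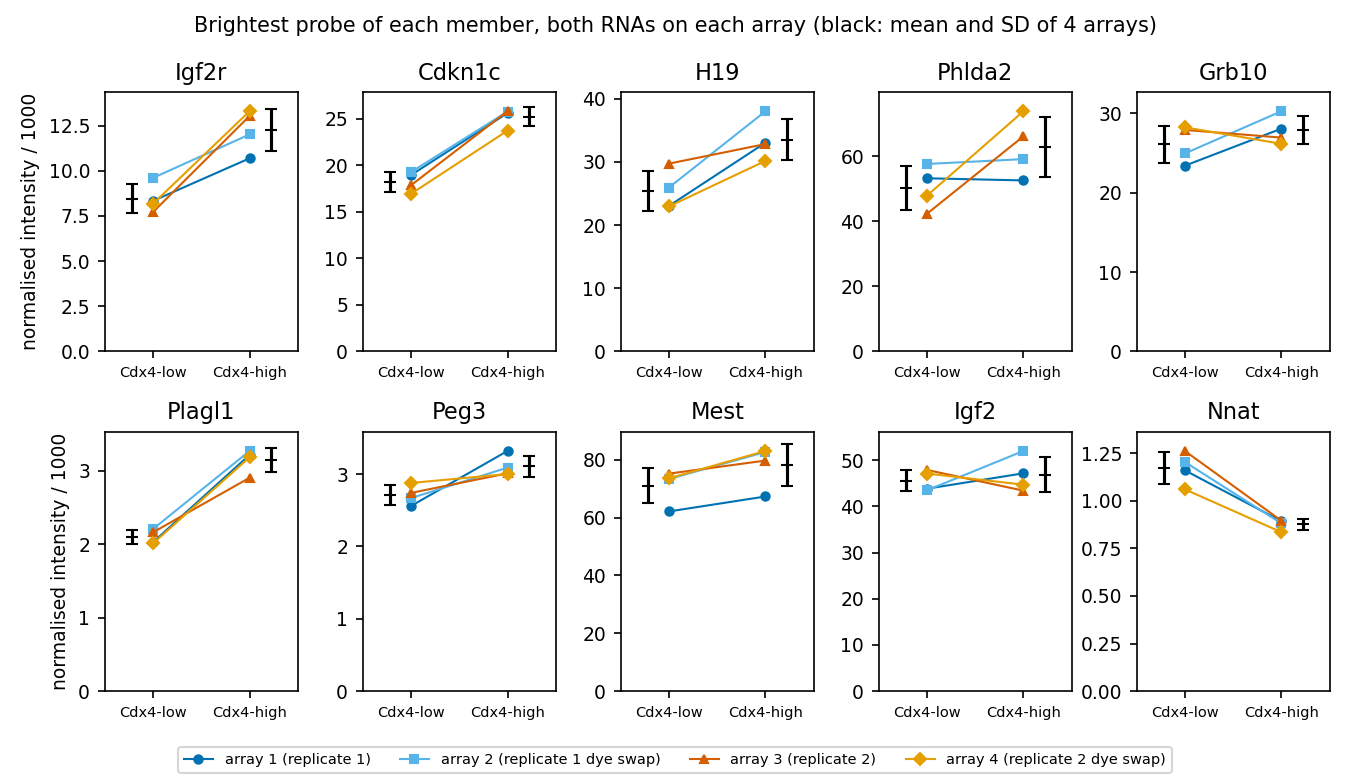
Normalised intensity, divided by 1000, of the brightest tested probe of each member in the Cdx4-low RNA (left) and the Cdx4-high RNA (right) of each panel, with 1 line for each of the 4 arrays and the mean and SD of the 4 arrays in black. After loess, every line falls toward the left for Igf2r, Cdkn1c, H19 and Plagl1, and also for Peg3 and Mest, which were not called. Every line rises toward the left for Nnat, and the lines differ in direction for Igf2, Grb10 and Phlda2.

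By the brightest probes, Plagl1 had the lowest mean ratio of the members, Igf2r the lowest among the maternally expressed ones, and Nnat was the one called higher. For these 3 the bases just before the gene start are shown, since CpG pairs there are the sites at which an imprinted promoter can be methylated. The sequences are from RefSeq (GRCm38.p6) and run 5′ to 3′ on the gene's strand, with each CpG in capitals. They cover chr10:13090582-13090831 for Plagl1 on the plus strand, chr17:12769707-12769956 for Igf2r on the minus strand and chr2:157559828-157560077 for Nnat on the plus strand.
Plagl1: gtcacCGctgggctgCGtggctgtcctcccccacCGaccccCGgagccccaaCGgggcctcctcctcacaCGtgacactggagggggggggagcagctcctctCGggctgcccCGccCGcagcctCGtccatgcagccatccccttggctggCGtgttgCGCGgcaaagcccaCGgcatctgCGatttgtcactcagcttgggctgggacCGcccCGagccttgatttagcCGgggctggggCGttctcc
Igf2r: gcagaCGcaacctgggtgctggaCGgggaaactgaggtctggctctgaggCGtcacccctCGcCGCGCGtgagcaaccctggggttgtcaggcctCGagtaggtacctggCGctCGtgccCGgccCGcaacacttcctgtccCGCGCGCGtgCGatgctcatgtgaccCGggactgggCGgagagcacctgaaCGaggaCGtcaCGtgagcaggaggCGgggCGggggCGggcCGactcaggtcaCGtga
Nnat: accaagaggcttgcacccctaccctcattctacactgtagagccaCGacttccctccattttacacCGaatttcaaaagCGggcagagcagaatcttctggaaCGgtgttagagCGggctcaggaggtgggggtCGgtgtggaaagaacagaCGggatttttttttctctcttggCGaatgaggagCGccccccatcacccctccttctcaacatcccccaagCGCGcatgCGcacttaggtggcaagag
The Plagl1 stretch holds 19 CpG pairs, the Igf2r stretch 27 and the Nnat stretch 12, against a median of 6 over all 32851 promoters of the same 250 bases. Methylation was not measured in this study. The letters TTTATG and TTTATT, which occur in the known binding motif of Cdx factors, were searched on both strands. These 3 stretches hold neither, which says only that the letters are not in these windows. Of the 14 promoters listed for 8 members, 3 hold one of them, of which 2 belong to Igf2 and 1 to Mest, and 25.5% of all promoters do. H19 and Cdkn1c are not among the promoters used here.

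Igf2r, the receptor that clears IGF2 and carries lysosomal enzymes, was measured by a single probe at chr17:12525901-12525959. Its intensities were 8329, 9603, 7707 and 8166 in the Cdx4-low RNA of arrays 1 to 4, and 10687, 12009, 13030 and 13294 in the Cdx4-high RNA. The 2 sets did not overlap, and the gap was wider on arrays 3 and 4 than on arrays 1 and 2. The log2 ratios were -0.36, -0.32, -0.76 and -0.70, with a mean of -0.54 ± 0.10 (SE; 1.45-fold, adjusted p = 0.00403).

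Cdkn1c, whose product p57Kip2 blocks cyclin-dependent kinases, had the evenest ratios of the maternally expressed members. Its probe at chr7:143268238-143268297 gave 18945, 19264, 17848 and 16925 in the Cdx4-low RNA, against 25608, 25767, 25807 and 23719 in the Cdx4-high RNA. The highest Cdx4-low value lay well under the lowest Cdx4-high value. The log2 ratios were -0.43, -0.42, -0.53 and -0.49, with a mean of -0.47 ± 0.09 (SE; 1.38-fold, adjusted p = 0.00532).

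H19, the noncoding RNA beside Igf2, had 2 probes that gave different calls. The brighter one, at chr7:142385254-142385313, read 23033, 25941, 29729 and 22959 in the Cdx4-low RNA and 33050, 38029, 32836 and 30167 in the Cdx4-high RNA. These did not overlap, although on array 3 the 2 RNAs lay close together. The log2 ratios were -0.52, -0.55, -0.14 and -0.39, with a mean of -0.40 ± 0.10 (SE; 1.32-fold, adjusted p = 0.0199). The other probe, at chr7:142385503-142385650, had ratios of -0.52, -0.56, -0.03 and -0.07, so that its difference lay on arrays 1 and 2. Its mean of -0.29 ± 0.11 (SE) did not pass in the first pairing (adjusted p = 0.151) and passed in the exchange pairing (adjusted p = 2.0e-07). The call for H19 also ended on the scanner's own processed signals, where the mean was -0.39 (adjusted p = 0.110), and without array 1, 2 or 4 (adjusted p between 0.0688 and 0.138).

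Phlda2, the growth-restraining neighbour of Cdkn1c, had unequal intensities in the 2 RNAs of arrays 3 and 4 and nearly equal ones on arrays 1 and 2. At chr7:143310959-143311018 its intensities were 53184, 57582, 42270 and 47833 in the Cdx4-low RNA and 52530, 59073, 66092 and 73787 in the Cdx4-high RNA, and the 2 sets overlapped. The log2 ratios were 0.02, -0.04, -0.64 and -0.63. Their mean of -0.32 ± 0.12 (SE) did not pass in the first pairing (adjusted p = 0.143) and passed in the exchange pairing (adjusted p = 8.02e-09). The exchange pairing averages over the gap between arrays 1 and 2 and arrays 3 and 4, so its p-value does not reflect that gap. The mean over arrays 1 and 2 exceeded the mean over all 4 by 0.31, the widest such gap among the members' brightest probes. A second probe, shifted by only a few bases, followed the same course with ratios of 0.14, -0.06, -0.56 and -0.51 (mean -0.25, adjusted p = 0.277).

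Grb10, the adaptor that binds insulin and IGF1 receptors, is maternally expressed in most tissues of the mouse and paternally expressed in neurons. Its 3 probes did not move together. The brightest, at chr11:11830965-11831024, had ratios of -0.26, -0.28, 0.05 and 0.11, with a mean of -0.10 ± 0.10 (SE, adjusted p = 0.741). The probe at chr11:11870574-11870633 read 1014, 1081, 904 and 1007 in the Cdx4-low RNA, against 1292, 1191, 1256 and 1300 in the Cdx4-high RNA, with no overlap. Its mean log2 ratio was -0.33 ± 0.10 (SE), just inside the threshold (adjusted p = 0.0487, and 2.2e-09 in the exchange pairing). The third probe, at chr11:11833580-11834228, averaged 0.07 (adjusted p = 0.801), so no single direction holds for the gene.

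Plagl1, a zinc finger transcription factor also called Zac1, had the lowest mean ratio of the 10 members by the brightest probe of each. Averaged over both its probes it was -0.35, above Igf2r at -0.54 and Cdkn1c at -0.47, and without replicate 1 Igf2r (-0.73) and Phlda2 (-0.64) were lower than Plagl1 (-0.54). Its brighter probe, at chr10:12821672-12821731, read 2025, 2204, 2160 and 2009 in the Cdx4-low RNA and 3213, 3267, 2902 and 3181 in the Cdx4-high RNA. The 2 sets were far apart on every array. The log2 ratios were -0.67, -0.57, -0.43 and -0.66, with a mean of -0.58 ± 0.09 (SE; 1.50-fold, adjusted p = 0.000905). The dimmer probe, at chr10:12819862-12819921, was well above background on 3 of the 4 arrays in the Cdx4-low RNA. It gave 188 to 224 in the Cdx4-low RNA and 223 to 231 in the Cdx4-high RNA, with a mean log2 ratio of -0.12 (adjusted p = 0.612).

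Nnat, known from developing neural tissue, was the only member called higher in the Cdx4-low RNA. At chr2:157253683-157253742 it read 1160, 1203, 1261 and 1060 in the Cdx4-low RNA, against 893, 881, 895 and 835 in the Cdx4-high RNA, and the 2 sets did not overlap. The log2 ratios were 0.38, 0.45, 0.50 and 0.34, with a mean of 0.42 ± 0.09 (SE; 1.34-fold, adjusted p = 0.0115). On the scanner's own processed signals the mean was 0.46 and missed the threshold (adjusted p = 0.0563), as it did without array 1 (adjusted p = 0.0856).

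Peg3, a zinc finger protein linked to maternal behaviour and fetal growth, had ratios below 0 on all 4 arrays without passing in the first pairing. Its brightest probe, at chr7:6311815-6311874, read 2559, 2667, 2739 and 2877 in the Cdx4-low RNA and 3319, 3089, 3010 and 3000 in the Cdx4-high RNA. The sets did not overlap, but the gap narrowed to a ratio of -0.06 on array 4. The mean of -0.20 ± 0.10 (SE) had an adjusted p of 0.310, and of 0.000834 in the exchange pairing. The second probe averaged -0.12 (adjusted p = 0.619), and the third, at chr7:6326319-6326377, was not tested because it was well above background on 2 arrays in each RNA.

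Mest, also called Peg1, had log2 ratios between -0.17 and -0.08 on the 4 arrays. Its probe at chr6:30698289-30698348 ranged over 62106 to 75173 in the Cdx4-low RNA and 67272 to 83003 in the Cdx4-high RNA, so the sets overlapped although each array had the lower value in the Cdx4-low RNA. The mean was -0.14 ± 0.09 (SE, adjusted p = 0.521), and its adjusted p was 0.0256 in the exchange pairing.

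Igf2, the fetal growth factor of the group, showed no call in either pairing. Its brightest probe, at chr7:142460185-142460245, sits on each array in 10 spots, whose log2 ratios had an SD of 0.046 to 0.079 within an array. The intensities were 43837, 43494, 47900 and 47123 in the Cdx4-low RNA and 47171, 52008, 43413 and 44711 in the Cdx4-high RNA. The ratios of -0.11, -0.26, 0.14 and 0.08 changed sign between arrays 1 and 2 on one side and arrays 3 and 4 on the other, by more than the spot error. Their mean was -0.04 ± 0.10 (SE; adjusted p = 0.924, and 0.624 in the exchange pairing). The other probe, at chr7:142460600-142460659, had the same order of signs, with -0.16, -0.31, 0.35 and 0.24 (mean 0.03, adjusted p = 0.951). No probe of any member was saturated or an outlier spot on any array.

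**Figure D2:**
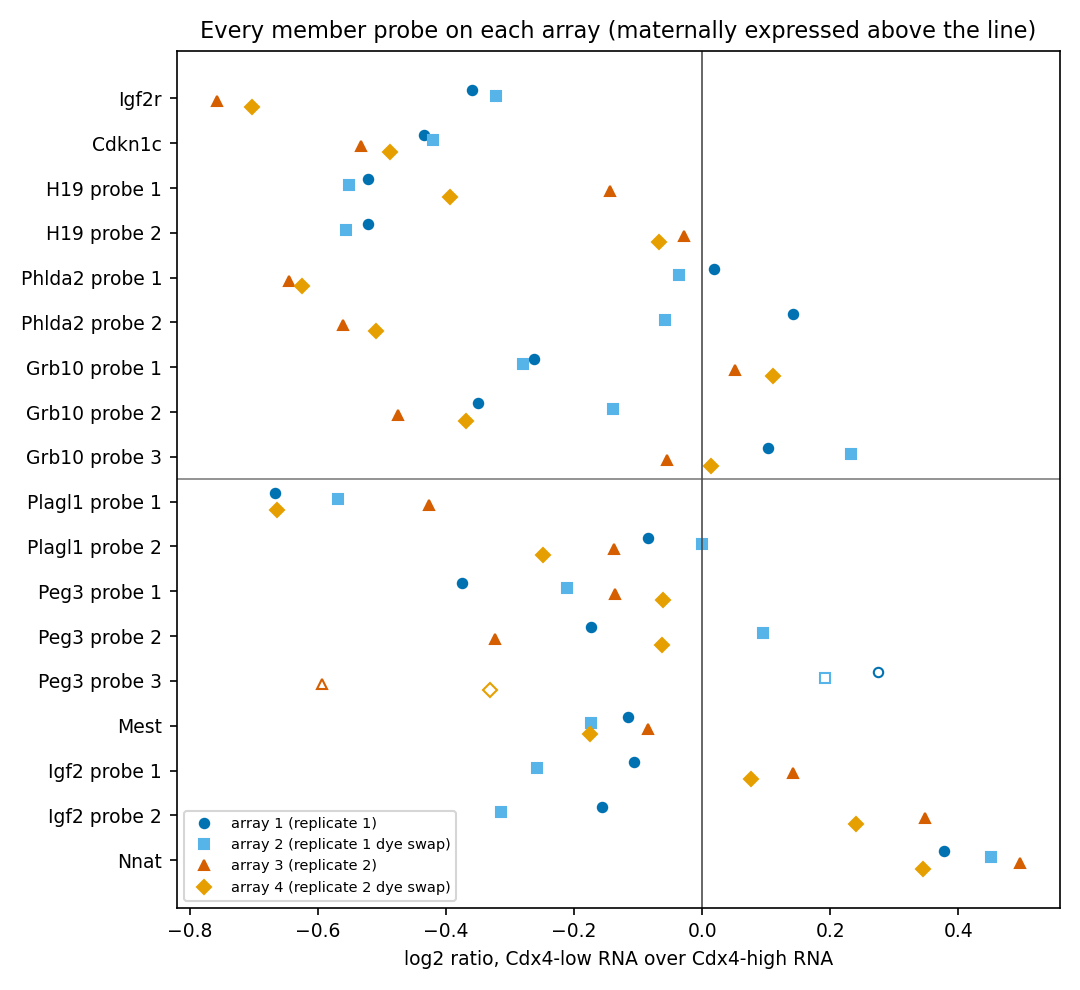
Log2 ratio of Cdx4-low over Cdx4-high RNA for all 18 member probes (rows, numbered by falling intensity within a gene), with 1 mark for each of the 4 arrays and open marks for the Peg3 probe that was not tested. The maternally expressed members stand above the line and the paternally expressed ones below it. Marks of arrays 1 and 2 and of arrays 3 and 4 lie apart for Igf2r, H19 probe 2, Phlda2, Grb10 probe 1 and Igf2, and together for Cdkn1c and Nnat.

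Set side by side by parental origin, 3 of 5 maternally expressed members were called lower and 0 higher, and of the 5 paternally expressed members 1 was called lower and 1 higher. The maternally expressed members had a median log2 ratio of -0.40 and a range of -0.54 to -0.10. The paternally expressed members had a median of -0.14 and a range of -0.58 to 0.42, and the median of all tested genes was 0.01. All 5 maternally expressed members and 4 of 5 paternally expressed ones had a mean below 0 after loess, whereas after median centring, which placed the median of all tested genes at 0.28, 3 and 2 lay below that median. The maternal median minus the paternal one was -0.27 over the gene means, and -0.24, -0.11, -0.45 and -0.43 on arrays 1 to 4 (mean -0.31, SD 0.16). The genes of each origin were listed with their values known, so this difference is a description with no test, and it turned to 0.030 with the signs as labelled. The 2 ranges overlapped. Without replicate 1 the difference was -0.41 and without replicate 2 it was -0.16.

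Among the mean ratios of all 14845 tested genes, counted from the low end, Plagl1 stood at 0.728% and Igf2r at 0.990%. Cdkn1c followed at 1.48%, H19 at 2.45%, Phlda2 at 4.39% and Peg3 at 10.5%. Neighbours in this order from Plagl1 to Phlda2 differed by less than their standard errors. Mest at 16.6%, Grb10 at 23.0% and Igf2 at 35.6% lay within the bulk of all genes, and Nnat stood near the high end at 98.5%.

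**Figure D3:**
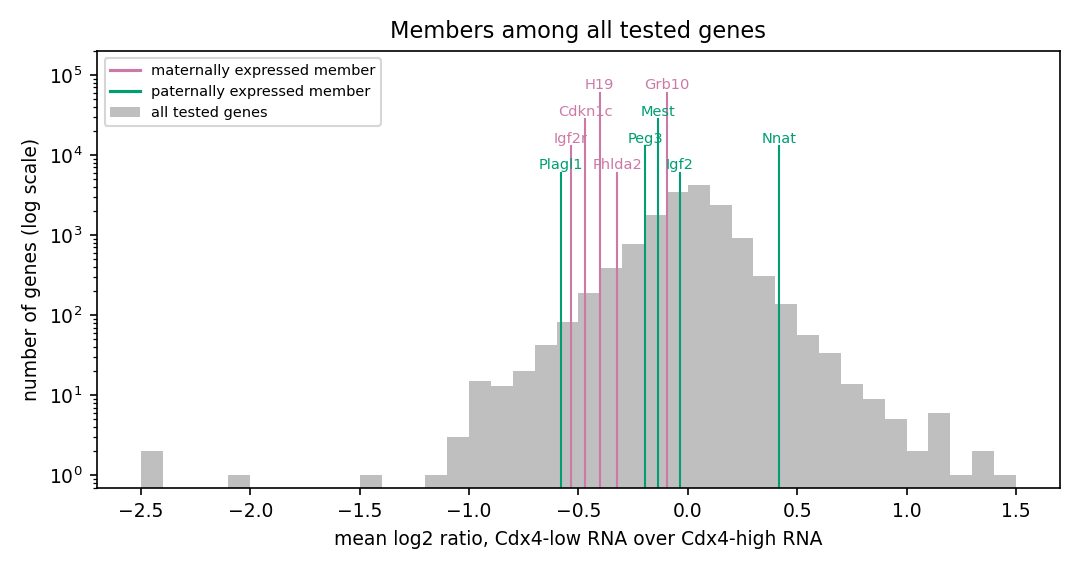
Number of tested genes (vertical axis, log scale) in bins of the mean log2 ratio of Cdx4-low over Cdx4-high RNA (horizontal axis), with a vertical line for each member. Plagl1 at -0.58 and Igf2r at -0.54 lie in the lower flank, Igf2 at -0.04 near the peak, and Nnat at 0.42 in the upper flank.

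Some members share a cluster. H19 and Igf2 are regulated from 1 imprinting control region in the mouse, with H19 on the maternal and Igf2 on the paternal chromosome, and their probes lie 74.9 kb apart on chromosome 7. H19 was lower (-0.40) and Igf2 was not called (-0.04). Cdkn1c and Phlda2, whose probes lie 42.7 kb apart in the adjoining Kcnq1 cluster, had means of -0.47 and -0.32, and Cdkn1c passed in both pairings. Other genes of that cluster listed as maternally expressed had means on both sides of 0, and none was called in both pairings. The means were 0.05 for Kcnq1, 0.07 for Slc22a18, -0.05 for Cd81, 0.04 for Ascl2, 0.17 for Tssc4, -0.13 for Nap1l4 and 0.29 for Osbpl5. Whether each is expressed from the maternal copy alone in this tissue was not measured. In the exchange pairing alone Nap1l4 was lower (adjusted p = 0.0304), and Tssc4 and Osbpl5 were higher. Whether these ratios differ from one another was not tested.

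At the Igf2r locus the antisense RNA Airn, which overlaps Igf2r and silences its paternal copy, had ratios of -0.39, -0.16, -0.69 and -0.50. Its mean of -0.44 ± 0.10 (SE, adjusted p = 0.0137) was lower, as that of Igf2r was, and both had their larger differences on arrays 3 and 4. The Airn probe was dim, with mean intensities of 236 in the Cdx4-low and 318 in the Cdx4-high RNA. The 2 tested probes of Airn averaged -0.44 and -0.23.

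The imprinted genes outside this group and outside Dlk1-Dio3 were counted in the same way. Their parental origin was taken from the lists and was not measured in this tissue. Of 25 other genes listed as maternally expressed, 19 were tested, 3 were lower and 0 higher, with 6 higher in the exchange pairing alone, and their median was 0.04. After median centring their median lay at -0.06 relative to all tested genes. The 3 lower ones were Klf14 (-0.79, adjusted p = 0.00019), Ube3a (-0.42, adjusted p = 0.0119) and Ppp1r9a (-0.36, adjusted p = 0.0301). The tested probes of Ube3a averaged from -0.42 to -0.24 and those of Ppp1r9a from -0.36 to -0.06. Klf14 encodes a zinc finger factor, Ube3a a ubiquitin ligase and Ppp1r9a an actin-binding protein. Of 20 other paternally expressed genes, 15 were tested, 4 were lower and 1 higher, with a median of -0.01. The lower ones were Slc38a4 (-0.55, adjusted p = 0.00177), an amino acid transporter, Airn, the retrotransposon-derived Peg10 (-0.37, adjusted p = 0.0400), and Sgce (-0.36, adjusted p = 0.0286), a sarcoglycan. The tested probes of Slc38a4 averaged from -0.55 to -0.19 and those of Sgce from -0.36 to -0.07. The higher one was Peg12 (0.43, adjusted p = 0.0103). These counts stand beside the 3.91% and 2.94% of all tested genes, and with the sign turned the 7 lower and 1 higher genes change places. Without array 1 the 8 calls fell to 1, without array 2 to 5 and without array 3 to 4. Over all tested genes the same fits gave 86, 248 and 286 higher and 74, 428 and 324 lower.

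By chromosome, 4 of 7 tested imprinted genes on chromosome 6 were lower, beside 3.91% of all tested genes. They were Sgce, Peg10, Ppp1r9a and Klf14, while Asb4 (-0.05), Mest (-0.14) and Copg2 (0.04) were not called. The listed genes of this chromosome come from 2 imprinted regions, so that they lie close together follows from the list. On chromosome 17 both tested genes were lower, Igf2r and Airn. On chromosome 7, with 21 tested, 3 were lower and 1 higher, and on chromosome 11, with 4 tested, none was called.

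**Figure D4:**
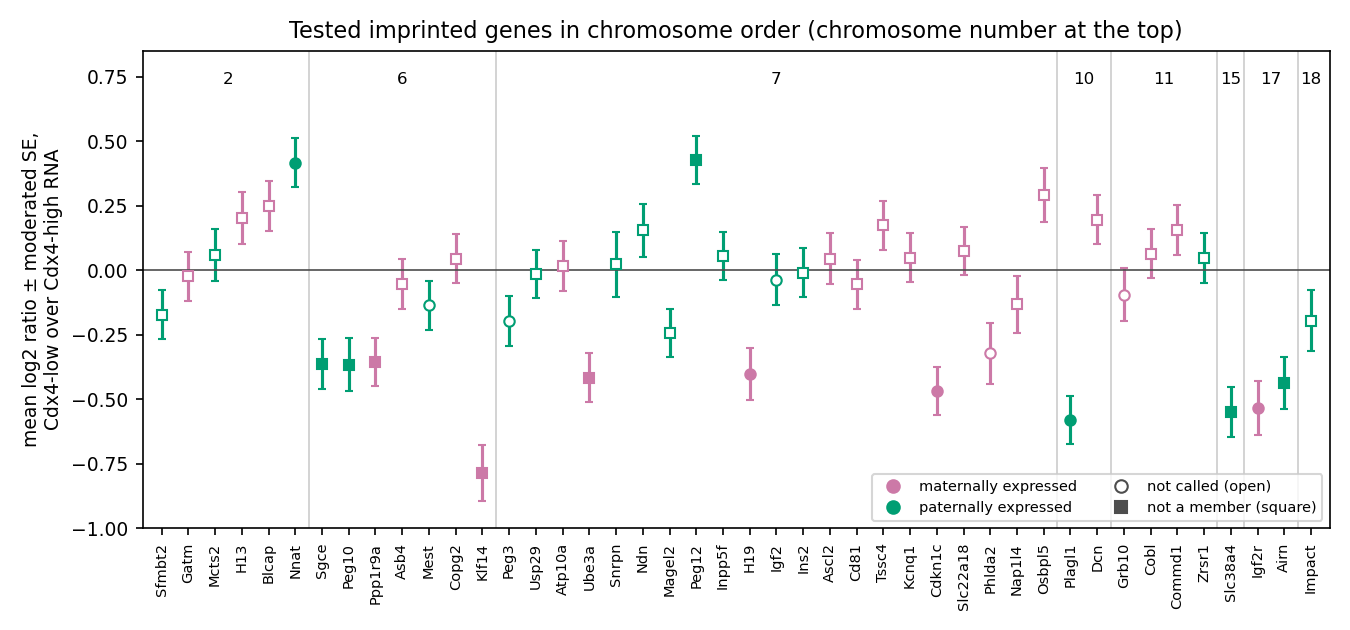
Mean log2 ratio of Cdx4-low over Cdx4-high RNA, with its moderated SE, of the members (circles) and other tested imprinted genes (squares) in chromosome order, with filled marks where both pairings passed. Chromosome 6 holds 4 lower genes, Igf2r and Airn are both lower on chromosome 17, and on chromosome 7 the genes from Ascl2 to Osbpl5 run from -0.47 at Cdkn1c to 0.29 at Osbpl5.

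The other genes of the IGF system were counted beside the shares of all tested genes, 3.91% lower and 2.94% higher in both pairings and 18.8% and 21.6% in the exchange pairing. Of the ligands and receptors, none of 4 tested genes was called. Igf1 averaged 0.18, Igf1r -0.24, Insr -0.11 and Insrr -0.04, and in the exchange pairing alone 1 was higher and 1 lower. Of the IGF binding proteins 0 of 6 tested were called, with ratios between -0.26 and 0.22, and in the exchange pairing 1 was higher and 2 were lower. The Igf2 mRNA binding proteins Igf2bp1 (-0.16), Igf2bp2 (-0.03) and Igf2bp3 (0.02) were not called, and in the exchange pairing alone Igf2bp1 was lower (adjusted p = 0.00643). In the relay of the signal, 2 of 9 tested genes were lower by their brightest probes: Pik3ca, the catalytic subunit of PI3 kinase (-0.38 ± 0.10 SE, adjusted p = 0.0224), and Pik3r1, its regulatory subunit (-0.34 ± 0.10 SE, adjusted p = 0.0391). The 2 tested probes of Pik3ca averaged from -0.38 to -0.11, and the 4 of Pik3r1 from -0.34 to -0.01. Pik3r1 was dim, with mean intensities of 284 in the Cdx4-low and 362 in the Cdx4-high RNA. In the exchange pairing 2 relay genes were higher and 3 lower, with Pik3ca and Pik3r1 among the lower. No gene of these lists passed without array 1 or without array 4, and 1 passed without array 3. Of all tested genes, 86 were higher and 74 lower without array 1, 316 and 467 without array 4, and 286 and 324 without array 3.

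Of the other cyclin-dependent kinase inhibitors, 0 of 4 tested were called, with 1 higher and 1 lower in the exchange pairing alone. Cdkn1a averaged 0.25, Cdkn1b -0.24, Cdkn2c -0.03 and Cdkn2d -0.12. That Cdkn1c differs from them was not tested. Of the genes that keep methylation imprints in place, 0 of 9 tested were called (2 higher and 2 lower in the exchange pairing alone). Over all tested genes 2901 had an unadjusted p under 0.05 in the first pairing.

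Marker genes of several cell types were measured in the same RNAs, and in bulk tissue fewer cells of a type and less RNA per cell cannot be told apart. All 13 markers of extraembryonic visceral endoderm were lower in the Cdx4-low RNA, also relative to all genes after median centring, and their summed intensity was 39143 to 40804 in the Cdx4-low RNA, against 83208 to 95821 in the Cdx4-high RNA. The largest of these were Afp (-2.04), Cubn (-1.12), Rbp4 (-1.07), Spp2 (-0.93), Apoa1 (-0.88) and Apom (-0.77). Of 8 endothelial markers 4 were lower, Kdr (-0.97), Etv2 (-0.72), Sox7 (-0.48) and Sox18 (-0.43), with sums of 7378 to 7737 against 11182 to 12557 in the Cdx4-high RNA. These lists moved the same way as Igf2r, Cdkn1c, H19 and Plagl1, and their part in those results was not tested.

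Some markers of other cells were higher in the Cdx4-low RNA, as Nnat was, while others were not called or, for 1 decidua marker, lower. The neural tube genes Sox2 (0.52) and Nkx6-1 (0.50) were higher, Sox1 (0.11) was not called and Pax6 was not tested because no probe passed the filter, with sums of 1247 to 1317 in the Cdx4-low RNA, against 890 to 1009 in the Cdx4-high RNA. Of 5 somite and presomitic genes, Meox1 (0.91) and Tcf15 (0.85) were higher, and Tbx6 (0.17), Msgn1 (0.16) and Mesp2 (0.15) were not called. In the exchange pairing all 5 were higher, where 21.6% of all tested genes were higher and 18.8% lower. All 5 were detected, as the labelled tissue would hold them, with sums of 12877 to 14953 against 11407 to 12135 in the Cdx4-high RNA. Most of these sums is Tbx6, which was not called (mean intensities of 11356 and 10055). The embryonic globins Hbb-bh1 (1.35), Hba-x (1.12) and Hbb-y (0.72) were higher, Alas2 (0.00346) was not called and Gata1 and Klf1 did not pass the filter, with sums of 5207 to 5754 in the Cdx4-low RNA, against 2267 to 2517 in the Cdx4-high RNA. Of 10 trophoblast and decidua markers, 7 were on the array and 4 were tested. Prl3d1 (0.33) was higher, Prl8a2 (-1.41), known from decidua, was lower, and Elf5 (0.25) and Hand1 (0.24) were not called. In the exchange pairing 3 of these 4 were higher and 1 lower. The sums of the 4 overlapped at 2372 to 2701 against 2426 to 2737 in the Cdx4-high RNA. The part of these markers in the results of the members was not tested.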

How the data were processed

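Each of 4 arrays measured both RNAs. The submitters' processing notes name Agilent Feature Extraction 9.5.3. The deposited scanner files hold an intensity for each spot and channel and a log10 ratio of Cy5 over Cy3, per the file headers. The authors' deposited series table holds log10 ratios, equal to those of the scanner files on the arrays without a dye swap and to their negative on the dye swaps, within 1e-05, with a median of 0 in each column. By the labels it runs as mutant over wildtype, with the same conflict with Cdx4.

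Mean and background intensities were corrected by normexp (offset 50) and normalised by loess within arrays in limma 3.58.1 (R 4.3.3), in which controls had weight 0. For the printed intensities and their sums, the mean log2 intensity of both channels was also quantile normalised between arrays. That step leaves the log2 ratios unchanged. Controls were then dropped with the 103 to 167 outlier spots of an array, spots of a probe averaged to a log2 ratio, and arrays turned so that Cdx4 was negative. Probes well above background on all 4 arrays in at least 1 RNA were tested, and the brightest stood for its gene. Of 41174 probes, 23374 were named by accession, 6733 held a current symbol, 2908 an older one and 8159 kept the file's name. The share of spots well above background ran from 50.6% to 64.9% over the channels, and the number of arrays limits the precision. The array slots share 1 slide, so slide could not be tested as a batch. Of these steps only the limma fit was tested on simulated data. Those were log2 ratios with independent noise on each array and, for the paired fit, no dye effect. Normalisation, the turning of arrays, the filter and the choice of probe were not tested in this way.

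Members and lists were chosen with earlier results of these data known, and no p-value is given for the list or for maternal against paternal genes. The text names all members and Cdx4, and from each other list up to 6 called genes with the largest mean change, or every gene where 5 or fewer were measured. The genes of the Kcnq1 cluster beside Cdkn1c are named outside this rule, after their values were seen. Alternatives were other pairings, signs as labelled, median centring, processed signals, the series table, an offset of 20, other filters, the mean over probes, and arrays left out.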

Additional observations from a re-analysis of the deposited data

How the results depend on the processing

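The 5 member calls became 8 in the exchange pairing, 9 when arrays 1 with 4 and 2 with 3 were paired, 8 with 4 arrays and a dye term, 3 with processed signals or the series table, and 0 as labelled, with median centring or without the filter on dim probes. Leaving out single arrays gave 1 to 5. In limma, 239 tested genes had an unadjusted p under 0.05 as labelled, 274 with median centring and 3852 without the filter. The 8 calls among other imprinted genes became 19 in both other pairings and with the dye term, 0 as labelled, with median centring or without the filter, and 5 with processed signals or the series table. Leaving out arrays gave 1 to 6. The 2 calls among IGF and growth pathway genes became 13 in the exchange pairing, 17 with 1 paired to 4 and 14 with the dye term, and 0 in the same 3 settings. Leaving out arrays gave 0 to 2. With only arrays 1 and 4, or only arrays 2 and 3, both added after seeing the data, other imprinted calls were 5 and 4, and pathway calls 1 and 0. Of all tested genes, 223 and 231 were higher and 349 and 241 lower in these 2 settings.

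The maternal minus paternal median turned to 0.030 as labelled and kept its sign in the other 19 alternatives, not all of which could move it. The other pairings and the dye term change only the spread, and the other filters kept the same brightest probes, so it stayed at -0.27 there. Processed signals and the series table hold the same ratios and count as 1 alternative. Without replicate 1 it was -0.41 and without replicate 2 it was -0.16. As labelled, signs also turned for Igf2r (0.0043), Cdkn1c (0.0075), Grb10 (0.019), Phlda2 (0.019), Igf2 (0.022) and Nnat (-0.056). Median centring gave 0.20 for H19, 0.11 for Cdkn1c, 0.50 for Grb10, 0.32 for Phlda2, 0.60 for Igf2, 0.23 for Peg3 and 0.53 for Mest. Relative to its all-gene median of 0.28 these were -0.08, -0.16, 0.22, 0.05, 0.32, -0.05 and 0.25, with Igf2r at -0.29, Plagl1 at -0.44 and Nnat at 0.45. Without array 1, 2, 3 or 4 Igf2 ranged from -0.07 to 0.0016. Without replicate 1 or 2, as values with no test, Grb10 ranged from -0.27 to 0.080 and Igf2 from -0.18 to 0.11. Averaged over its probes, Plagl1 was -0.35. The cause of these shifts was not tested. Each ratio pairs both RNAs of 1 array, so there was no further replicate number to block on.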
